A study of Arabidopsis thaliana with 13 samples.

Results

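The UDP-glycosyltransferase genes of Arabidopsis thaliana were examined on Affymetrix ATH1 arrays as the probe sets annotated to exactly 1 gene with a symbol of the form UGT, family number, letter, number. This rule found 47 of 22746 tested probe sets, 1 for each of 47 genes, in 11 families by their first number. All 47 matched a locus in the gene table used for names. The rule uses gene symbols and no measured value, though the family was picked with earlier results of these data known.

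UDP-glycosyltransferases move a sugar, usually glucose, from a UDP-sugar onto a small molecule. Their known acceptors in Arabidopsis include salicylic acid and other defence signals, auxin, cytokinin, abscisic acid, flavonols, lignin precursors and foreign chemicals. Conjugation generally makes the acceptor more soluble, readies it for storage in the vacuole and, for hormones, lowers its activity.

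The series concerned ANAC092 and ANAC059, a pair of related NAC transcription factors also called ORE1 and ORS1, which are known to promote leaf senescence. In 3-week-old Col-0 seedlings, 10 µM estradiol was applied for 5 h to plants with an inducible ANAC092 construct (3 arrays), plants with an inducible ANAC059 construct (2 arrays) or plants with the empty inducible vector, and shoots were taken. The controls therefore received estradiol too. The empty vector gave 3 arrays normalized with ANAC092 and 2 normalized with ANAC059. From plants grown on soil for 38 days, leaf 11 was harvested from a T-DNA insertion line of ANAC092, a T-DNA insertion line of ANAC059 and Col-0 wild type, with 1 array each. The titles call the arrays biological replicates. The number of independent transgenic lines, the promoter within the inducible system and the position of each insertion are not given in the sources used here.

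Values are the authors' log2 RMA signals, a background-corrected, quantile-normalized summary of each probe set. RMA was run separately on the ANAC092, ANAC059 and leaf sets, so each comparison stayed within its set. Under the annotation no probe set was named for ANAC092 or ANAC059, so the induction and the insertions were not checked at the transcript. Of the leaf markers, the 4 that were measured (RCA, PRK, PORB and rbcL) lay above the median probe set in every set, and the 2 measured root hair markers, EXPA7 and EXPA18, lay below it. No flower or dividing cell marker had a probe set named for it. Here and below, a measured gene is one with a probe set named for it alone. Other genes may lie among the 8730 probe sets without a name. Both empty vector arrays of the ANAC059 set were taken as the same hybridisations as replicates 1 and 2 of the ANAC092 set, because the difference between them correlated at 0.883 across all probe sets between the sets. Both inductions therefore share control arrays.

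Some arrays stood apart from others of their group. Across probe sets, the SD of the difference was 0.129 between ANAC092 induced replicates 1 and 3 and 0.364 and 0.343 for the pairs that hold replicate 2. Among the empty vector arrays it was 0.178 between replicates 1 and 2 and 0.386 and 0.351 for the pairs that hold replicate 3. Whether induced replicates 1 and 3 share RNA was not tested. The p-values below measure only the spread between these arrays, which may in part be technical.

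After ANAC092 induction, 6 UDP-glycosyltransferase genes fell and 1 rose. The falls were UGT76B1, UGT73B4, UGT73B5, UGT76E12, UGT88A1 and UGT73B1, by 1.52- to 2.41-fold, and the rise was UGT76D1, by 1.65-fold. The other members did not pass the threshold of 0.05 on limma's p-value adjusted over all 22746 probe sets. The 6 falls are 12.8% of the members, against 0.831% of all probe sets called lower, and the 7 calls are 14.9%, against 2.23% of all probe sets called. For rises the share called was 1.4% of all probe sets. The induced arrays lay below every empty vector array for 13 members, or 27.7%, against 12.4% of all probe sets, and above every one for 2, or 4.26%, against 7.98%. Either way the groups were apart for 20.4% of all probe sets. Without empty vector replicate 3 the counts were 4 lower and 1 higher, with 3.46% of all probe sets called either way. Without empty vector replicate 1 they were 0 and 0, with 0.963% called. With induced replicates 1 and 3 averaged as 1 sample they were 2 and 0, with 1.06% called.

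The family did not move as a block. The median change of the 47 members was -0.08 on the log2 scale, with quartiles of -0.28 and 0.06, against a median of -0.03 and quartiles of -0.15 and 0.09 for all probe sets. Changes were below 0 for 33 members and above 0 for 14; they were below 0 for 56.8% of all probe sets. The 4 measured leaf markers did not move one way after ANAC092 induction, with a median of -0.29. rbcL, which is encoded in the chloroplast genome, rose by 0.75 ± 0.14 SE (limma adjusted p = 0.0416). The nuclear markers all lay below 0 without passing, PRK at -0.65, PORB at -0.42 and RCA at -0.15. After ANAC059 induction their median was 0.17. RCA rose by 0.63 ± 0.10 SE (limma adjusted p = 0.0251), while rbcL was at 0.27, PRK at 0.07 and PORB at -0.03 without passing. The part of these markers in the results below was not tested. In bulk shoots, less RNA per cell and fewer cells of a type that holds the transcript cannot be told apart.

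**Figure D1:**
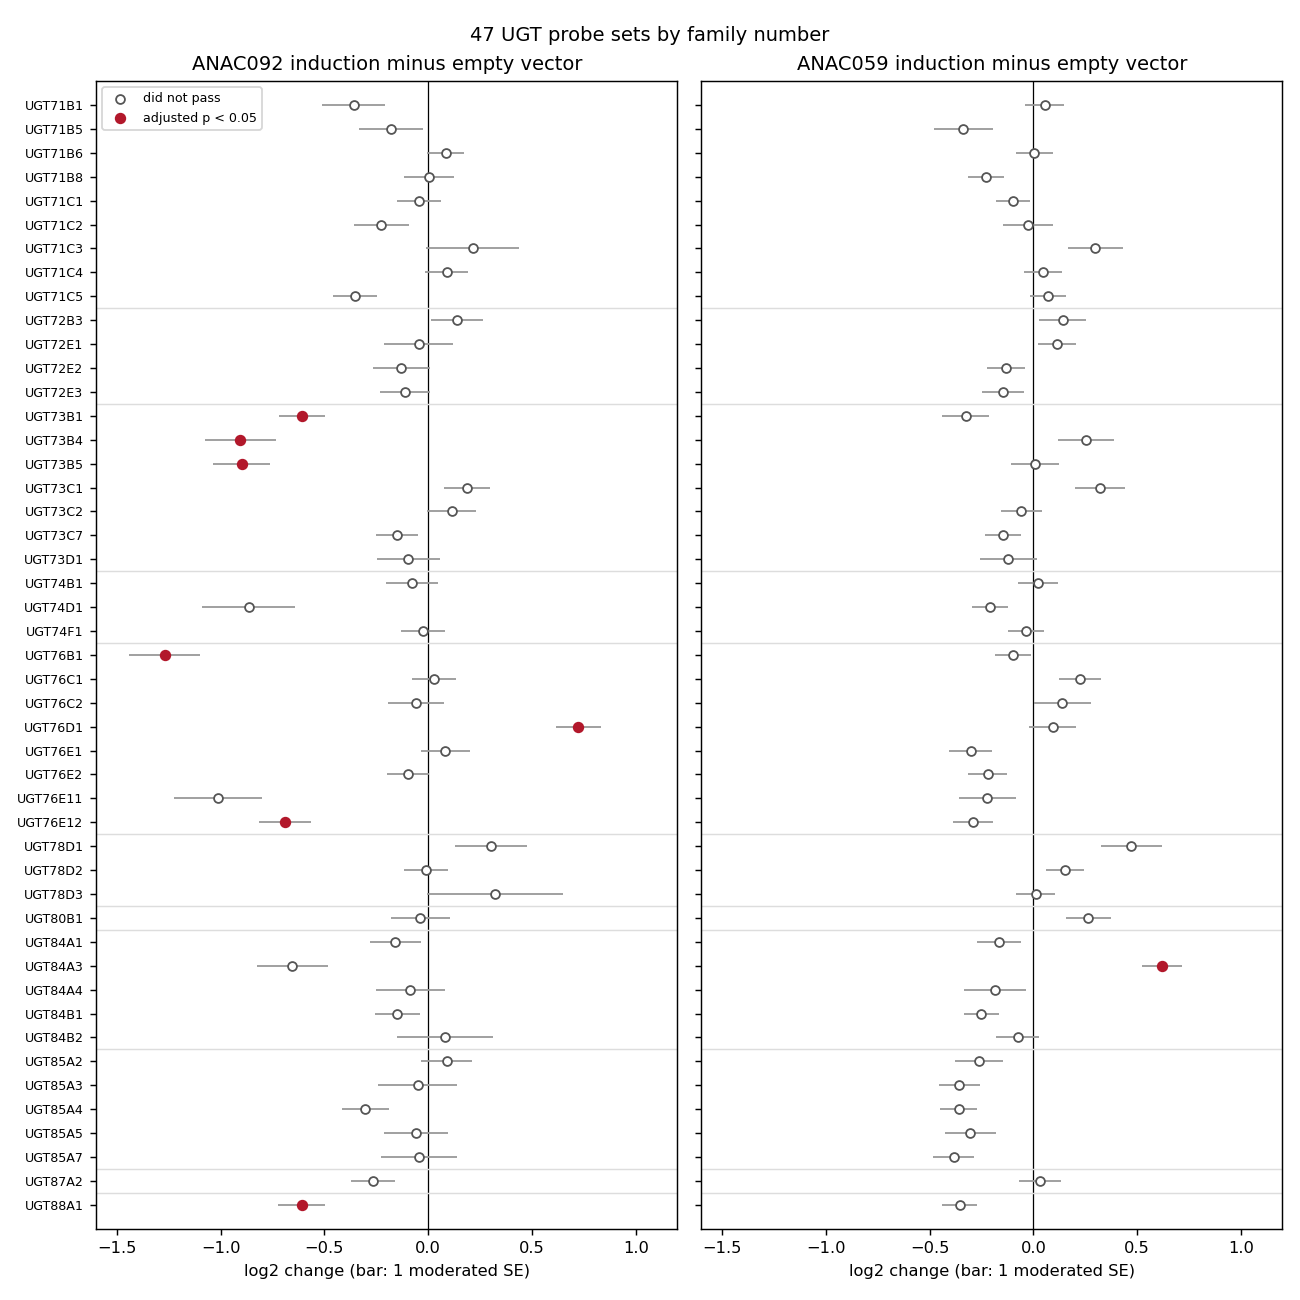
Log2 change of each of the 47 UDP-glycosyltransferase probe sets, ordered by family number, after ANAC092 induction (left panel, 3 induced and 3 empty vector arrays) and after ANAC059 induction (right panel, 2 and 2), with 1 moderated SE as a bar. Filled points passed an adjusted p of 0.05: 7 in the left panel, in families 73, 76 and 88, and 1 in the right panel, in family 84.

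By family number, the calls lay in families 73, 76 and 88. Family 73 had 3 falls among 7 measured genes and a median change of -0.15, and family 76 had 2 falls and 1 rise among 8 and a median of -0.08. The 9 genes of family 71 lay between -0.36 and 0.21 with a median of -0.05, and the 4 of family 72 between -0.13 and 0.14 with a median of -0.08. Family 84 had 5 genes and a median of -0.15, family 85 had 5 and a median of -0.05, family 74 had 3 and a median of -0.08, and none of their genes passed. Family 78, with 3 genes of which none passed, was the only one of several genes with a median above 0, at 0.30. That median was the change of UGT78D1, which depended on the control array. It was 0.01 against empty vector replicate 3 alone and 0.45 against the mean of replicates 1 and 2. UGT80B1 and UGT87A2, each alone in its family, were at -0.04 and -0.27 and did not pass.

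UGT76B1 (AT3G11340) glucosylates salicylic acid, N-hydroxypipecolic acid and isoleucic acid and so restrains defence signalling. Its log2 signal was 8.04, 8.02 and 7.50 in ANAC092 induced shoots, against 9.02, 9.02 and 9.32 in empty vector shoots. Every induced array lay below every control array, and the gap between the groups was wider than the range within either. UGT76B1 fell 2.41-fold (log2 change -1.27 ± 0.17 SE, n = 3 per group, limma adjusted p = 0.0110), the only member to change at least 2-fold and pass. Of 6 fits that each omitted 1 array, 4 passed, and those without empty vector replicate 1 or 2 missed (limma adjusted p 0.0230 to 0.0545 over the 6). Averaging induced replicates 1 and 3 gave an adjusted p of 0.0183.

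UGT76D1 (AT2G26480) glycosylates dihydroxybenzoic acids, products of salicylic acid breakdown. It had 7.43, 7.20 and 7.35 in ANAC092 induced shoots, against 6.59, 6.71 and 6.51 in empty vector shoots. The groups did not overlap, with the induced arrays higher. UGT76D1 rose by 0.72 ± 0.11 SE on the log2 scale (limma adjusted p = 0.0172, n = 3 per group). Omitting single arrays kept the call in 2 of 6 fits, without induced replicate 2 or empty vector replicate 3 (limma adjusted p 0.0247 to 0.104). The list of salicylate and benzoate enzymes holds 6 genes, of which 4 were measured. UGT74F2 and UGT89A2 had no probe set named for them alone. The 2 remaining measured members did not pass. UGT74F1, a salicylic acid glucosyltransferase, was at -0.02 and UGT71C3, which acts on methyl salicylate, at 0.21. Of 4 measured salicylate and benzoate enzymes, 1 thus fell, 1 rose and 2 did not pass, with a list median of 0.10 against -0.03 for all probe sets.

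The 3 genes of the 73B group with a probe set of their own all fell after ANAC092 induction. The probe set shared by UGT73B2 and UGT73B3 did not pass, at 0.08 (limma adjusted p = 0.838). The 4 measured 73C and 73D genes did not pass either, at -0.15 to 0.19. UGT73B4 and UGT73B5 are known to respond to pathogens and oxidative stress. UGT73B5 (AT2G15480) had 8.53, 8.34 and 8.12 in ANAC092 induced shoots, against 9.27, 9.07 and 9.36 in empty vector shoots, and the groups lay well apart. UGT73B5 fell by 0.90 on the log2 scale (± 0.14 SE, limma adjusted p = 0.0180). It was called in 2 of the 6 fits without single arrays, and also with induced replicates 1 and 3 averaged (adjusted p = 0.0384).

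UGT73B4 (AT2G15490), its neighbour on chromosome 2, had 7.48, 7.06 and 6.99 in ANAC092 induced shoots, against 8.07, 7.85 and 8.32 in empty vector shoots. The induced arrays were again all lower, with replicate 1 the closest to the controls. UGT73B4 fell by 0.91 on the log2 scale (± 0.17 SE, limma adjusted p = 0.0447) and passed in 1 of the 6 fits without single arrays. The annotated spans of UGT73B4 and UGT73B5 overlap in TAIR10.1, so the probe sets may not be independent of each other. UGT73B1 (AT4G34138), on chromosome 4, had 7.95, 7.74 and 7.78 in ANAC092 induced shoots, against 8.48, 8.51 and 8.30 in empty vector shoots. This was a narrower but complete separation. UGT73B1 fell by 0.61 on the log2 scale (± 0.11 SE, limma adjusted p = 0.0369), passed in 1 of the 6 fits without single arrays and missed with a trended variance (adjusted p = 0.0518).

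The 76E group has a pair of measured neighbours on chromosome 3 and another pair on chromosome 5. UGT76E12 (AT3G46660) had 6.45, 6.29 and 6.31 in ANAC092 induced shoots, against 7.18, 6.82 and 7.11 in empty vector shoots. All induced arrays lay lower, and empty vector replicate 2 was the lowest control. UGT76E12 fell by 0.69 on the log2 scale (± 0.13 SE, limma adjusted p = 0.0380) and passed in 1 of the 6 fits without single arrays. UGT76E11 (AT3G46670), which acts on flavonols, had 7.12, 7.43 and 6.60 in ANAC092 induced shoots, against 8.27, 8.00 and 7.92 in empty vector shoots. Its groups did not overlap either, but the induced arrays spread widely (SD 0.42), and the change of -1.01 ± 0.21 SE missed the threshold (limma adjusted p = 0.0645). UGT76E11 passed without induced replicate 2 (limma adjusted p = 0.0457) and with array weights (limma adjusted p = 0.00109). On chromosome 5, UGT76E1 was at 0.08 and UGT76E2 at -0.10.

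UGT88A1 (AT3G16520), the single measured gene of family 88, had 9.43, 9.11 and 9.26 in ANAC092 induced shoots, against 9.89, 9.94 and 9.80 in empty vector shoots. The induced arrays were all lower. UGT88A1 fell by 0.61 on the log2 scale (± 0.11 SE, limma adjusted p = 0.0417), in a call kept in 1 of the 6 fits without single arrays. Array choice moved the calls more than the sizes. Over those 6 fits the change of UGT88A1 lay between -0.69 and -0.53, that of UGT73B4 between -1.06 and -0.79 and that of UGT76B1 between -1.36 and -1.09.

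**Figure D2:**
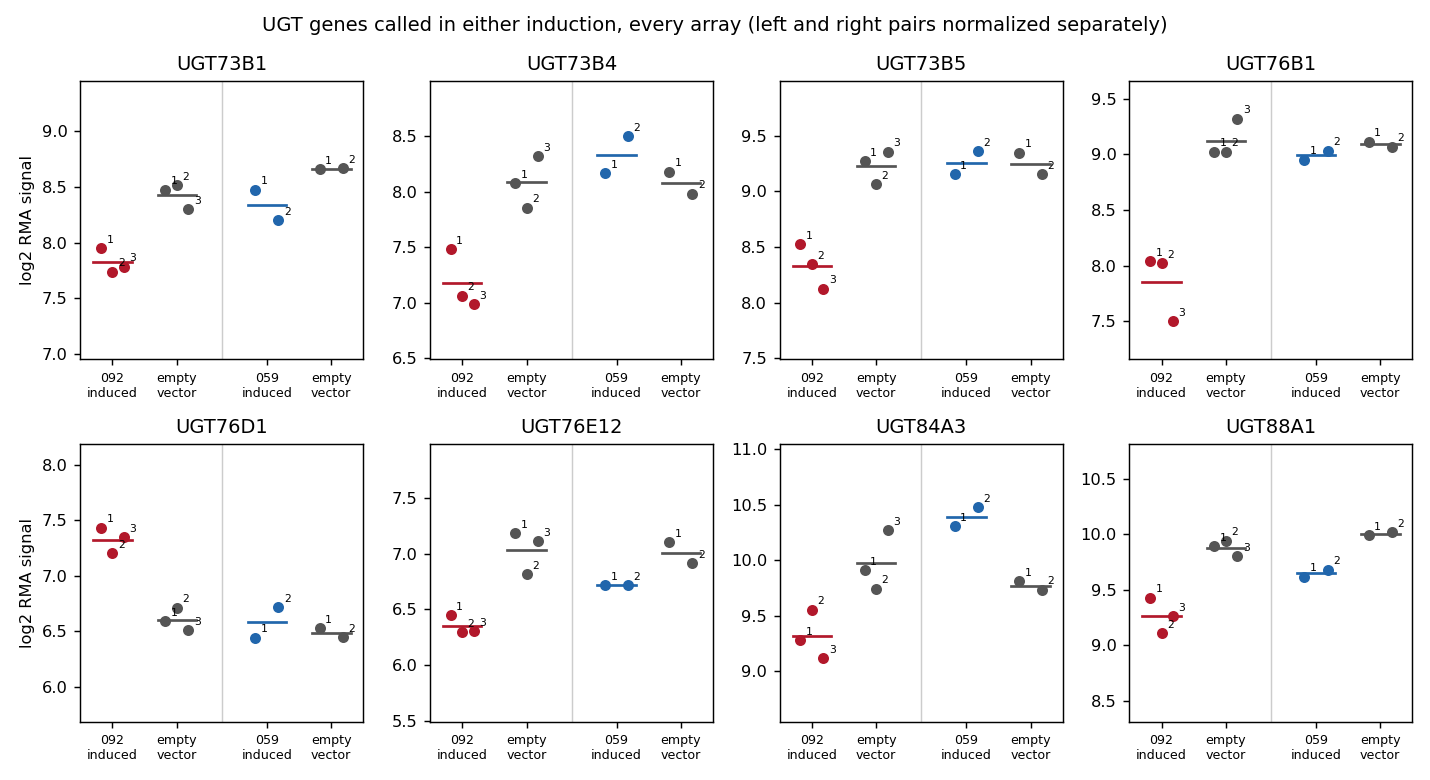
Log2 RMA signal on every array for the 8 UDP-glycosyltransferase genes called in either induction, with replicate numbers beside the points and group means as bars. In each panel the left pair is ANAC092 induced and empty vector and the right pair ANAC059 induced and empty vector, normalized separately, and all panels span the same height. UGT76B1 shows the widest gap in the left pairs, and UGT84A3 lies lower in the left pair and higher in the right pair.

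**Figure D3:**
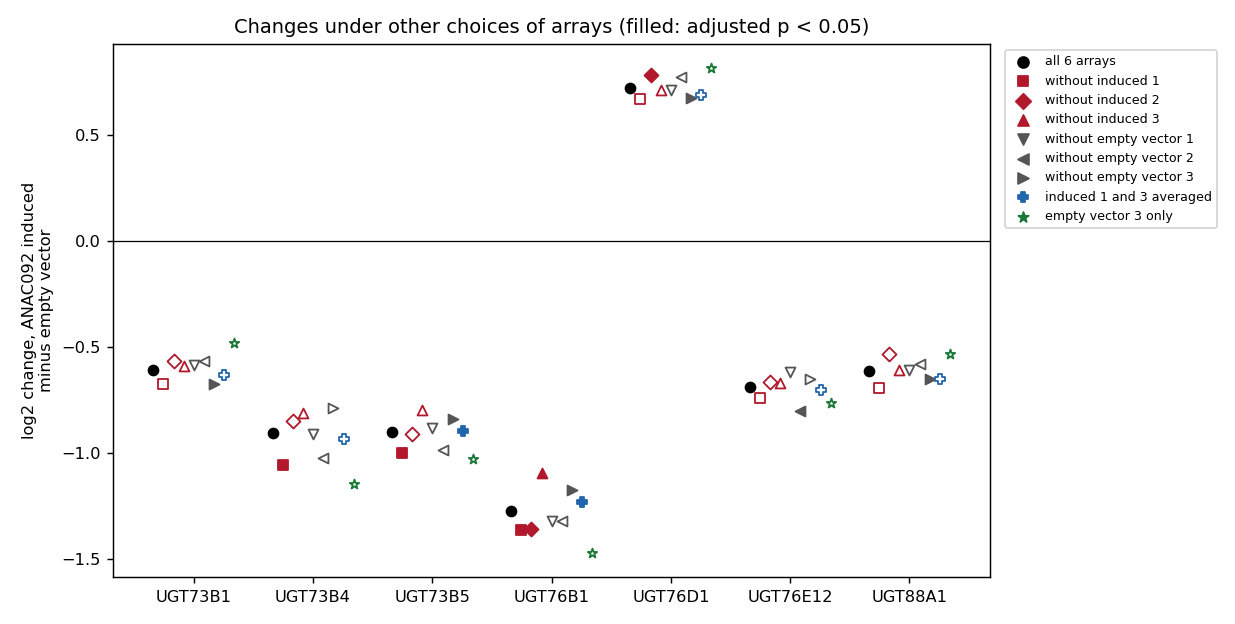
Log2 change of the 7 genes called after ANAC092 induction under 9 choices of arrays, with a filled symbol where the adjusted p was under 0.05. Every change kept its direction under these choices, while only UGT76B1 and UGT73B5 passed with induced replicates 1 and 3 averaged and none passed against empty vector replicate 3 alone.

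The 7 changes kept their direction against empty vector replicate 3 alone. Against it UGT76B1 stood at -1.47, UGT73B4 at -1.14, UGT73B5 at -1.03, UGT76E12 at -0.76, UGT88A1 at -0.53, UGT73B1 at -0.48 and UGT76D1 at 0.82. With that lone control, assumed to vary like the induced arrays, none of the 7 passed (limma adjusted p 0.0653 to 0.192). At an unadjusted p under 0.05 in the fit of all 6 arrays, 13 members were lower and 1 higher, where 12% of all probe sets passed in either direction.

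The lists of auxin, cytokinin, abscisic acid and flavonoid enzymes held 1 call after ANAC092 induction, UGT73B1. Of all probe sets 2.23% were called. Of 8 listed auxin enzymes, 3 were measured and none of these passed. UGT74D1 (AT2G31750), which glucosylates indole-3-acetic acid, had 8.68, 7.75 and 8.30 in ANAC092 induced shoots, against 9.13, 8.95 and 9.25 in empty vector shoots. All induced arrays were lower, with replicate 2 lowest, and the change was -0.87 ± 0.22 SE (limma adjusted p = 0.132). UGT84B1 and UGT84B2, close neighbours on chromosome 2, were at -0.15 and 0.08. Of 5 listed cytokinin enzymes, 3 were measured. UGT76C1, UGT76C2 and UGT73C1 were at 0.03, -0.06 and 0.19. Of 4 listed abscisic acid enzymes, 3 were measured. UGT71B6, UGT71B8 and UGT71C5 were at 0.08, 0.00 and -0.35, and none passed.

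Of 12 genes on the flavonol and anthocyanin list, 6 were measured. Among these UGT73B1 fell and 5 did not pass. The list leaves out UGT76E11, described above, and holds UGT84A1, at -0.16. UGT78D1, the flavonol rhamnosyltransferase, was at 0.30, UGT78D2, the flavonoid glucosyltransferase, at -0.01 and UGT78D3, the arabinosyltransferase, at 0.32. The last rested on 1 array: UGT78D3 had 5.69, 7.08 and 5.89 in ANAC092 induced shoots, against 5.94, 5.90 and 5.85 in empty vector shoots. Replicate 2 alone was high, and the groups overlapped. Of 8 listed enzymes of phenylpropanoids and lignin precursors, 6 were measured. None of them passed, although UGT84A3, described below, was at -0.66. The 3 monolignol enzymes UGT72E1, UGT72E2 and UGT72E3 lay at -0.13 to -0.05. UGT74B1, which forms the thioglucoside of glucosinolates, was at -0.08, and the sterol glucosyltransferase UGT80B1 at -0.04.

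After ANAC059 induction, 1 UDP-glycosyltransferase gene rose and none passed as lower. That is 2.13% of the members, against 2.99% of all probe sets called, 1.34% lower and 1.65% higher. The median of the 47 changes was -0.07 on the log2 scale, with quartiles of -0.22 and 0.08, against a median of -0.01 and quartiles of -0.13 and 0.12 for all probe sets. The induced arrays lay below both empty vector arrays for 20 members, or 42.6%, against 26.8% of all probe sets, and above both for 9, or 19.1%, against 26.2%. Either way the groups were apart for 53% of all probe sets. At an unadjusted p under 0.05 in limma, 10 members were lower and 4 higher, where 20.4% of all probe sets passed. By family number the medians lay between -0.36 in family 85 and 0.15 in family 78 among families of several genes, with 0.01 in family 71, -0.01 in family 72, -0.06 in family 73, -0.04 in family 74 and -0.16 in families 76 and 84.

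UGT84A3 (AT4G15490), which forms glucose esters of sinapate and other hydroxycinnamates, was the rise. It had 10.31 and 10.47 in ANAC059 induced shoots, against 9.81 and 9.73 in empty vector shoots of the same set. UGT84A3 rose by 0.62 ± 0.10 SE on the log2 scale (limma adjusted p = 0.0273, n = 2 per group). Of 4 fits that each omitted 1 array, 1 passed, that without induced replicate 1 (limma adjusted p 0.0375 to 0.116). In those fits the single array of a group has the spread of the other group. Empty vector replicate 3, not part of this comparison, lay 0.44 above the mean of replicates 1 and 2 in the ANAC092 set, toward the ANAC059 value. In that set the gene had 9.28, 9.55 and 9.12 in ANAC092 induced shoots, against 9.91, 9.74 and 10.27 in empty vector shoots. All ANAC092 induced arrays were lower, but the change of -0.66 ± 0.17 SE did not pass (limma adjusted p = 0.135). Its tandem neighbours UGT84A1 and UGT84A4 were at -0.16 and -0.19 after ANAC059 induction and at -0.16 and -0.09 after ANAC092 induction.

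The 7 genes called after ANAC092 induction did not pass after ANAC059 induction. Their ANAC059 changes were -0.10 for UGT76B1, 0.25 for UGT73B4, 0.01 for UGT73B5, -0.33 for UGT73B1, -0.29 for UGT76E12, -0.35 for UGT88A1 and 0.09 for UGT76D1. The difference between the inductions was not tested, since the sets were normalized apart. UGT88A1 had 9.62 and 9.68 in ANAC059 induced shoots, against 9.99 and 10.02 in empty vector shoots, so the groups did not overlap, with a limma adjusted p of 0.0907.

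All 5 measured 85A genes, 4 of them in a row on chromosome 1, lay lower on both ANAC059 induced arrays than on both controls, as did 26.8% of all probe sets, and none passed in limma. UGT85A7 was at -0.38, UGT85A4 at -0.36, UGT85A3 at -0.36, UGT85A5 at -0.30 and UGT85A2 at -0.26. Empty vector replicate 3, which is not part of the ANAC059 comparison, differed in the ANAC092 set from the mean of replicates 1 and 2 by -0.48 for UGT85A7, -0.05 for UGT85A4, -0.13 for UGT85A3, -0.42 for UGT85A5 and -0.18 for UGT85A2. After ANAC092 induction the 85A genes stood at -0.30 to 0.09 and none passed. The flavonol enzyme UGT78D1 was at 0.47 after ANAC059 induction (limma adjusted p = 0.157), and empty vector replicate 3 lay 0.44 above the other controls for it.

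In leaf 11 the set median was a log2 signal of 5.76, and 25 of the 47 members reached it in wild type or an insertion line. No member of the 25 differed from wild type by 2-fold or more in either line. Among all probe sets that reached the median, 1.61% were at least 2-fold lower and 1.87% higher in the ANAC092 insertion line, and 1.14% were lower and 8.18% higher in the ANAC059 insertion line. With 1 array per genotype no difference was tested, and both lines share the wild type array. The 25 members had a median difference of -0.16 in the ANAC092 line and -0.10 in the ANAC059 line, against 0 for all such probe sets in both. In the ANAC092 line 17 of them lay below wild type, or 68%, against 47.6% of all, 4 above, against 37.6%, and 4 were equal to it, against 14.8%. In the ANAC059 line 13 lay below, or 52%, against 44.2%, 6 above, against 43.2%, and 6 were equal, against 12.6%. At 1.5-fold, 2 members were lower in the ANAC092 line, UGT87A2 and UGT84A4, against 6.77% of all, and 0 were higher, against 6.01%. In the ANAC059 line 4 were lower at 1.5-fold, UGT84A3, UGT78D2, UGT72E1 and UGT72B3, against 5.37% of all, and 0 were higher, against 16.8%.

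The enzymes of phenylpropanoids and lignin precursors lay below wild type in leaf 11. This held for all 5 that reached the set median, at differences of -0.70 to -0.37 in the ANAC092 line and -0.98 to -0.44 in the ANAC059 line, where 47.6% and 44.2% of all such probe sets lay below. The lines share the wild type array, so they are not independent of each other. The sixth, UGT72E3, lay under the set median, at 0 and -0.02. UGT84A3 had 9.04 in the ANAC092 line and 8.59 in the ANAC059 line, against 9.57 in wild type. UGT84A4 had 6.29 and 6.53 in these lines, against 6.99 in wild type. The monolignol enzyme UGT72E1 had 8.96 in the ANAC092 line and 8.79 in the ANAC059 line, against 9.42 in wild type, and UGT72E2 had 6.65 and 6.73, against 7.17. UGT72B3 had 5.87 and 5.63 in these lines, against 6.23 in wild type. Without replicates these values carry no error.

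Single members differed more in one line than in the other. UGT87A2, known for its effect on flowering time, had 10.67 in the ANAC092 line and 11.31 in the ANAC059 line, against 11.61 in wild type, a 1.92-fold and a 1.23-fold difference. UGT71B6, an abscisic acid glucosyltransferase, had 6.05 in the ANAC092 line and 6.64 in the ANAC059 line, against 6.60 in wild type. UGT74B1 had 8.69 in the ANAC092 line and 9.38 in the ANAC059 line, against 8.91 in wild type. UGT78D2 had 7.37 and 7.12 in these lines, against 7.77 in wild type.

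Of the 7 genes called after ANAC092 induction, 2 reached the leaf set median. UGT76B1 had 7.89 in the ANAC092 line and 8.00 in the ANAC059 line, against 8.46 in wild type. Both insertion lines thus lay below their shared wild type array, as the seedlings induced for ANAC092 lay below their controls. The leaf differences were not tested. UGT88A1 had 10.56 and 10.66 in these lines, against 10.58 in wild type. The 3 measured 73B genes, UGT76D1 and UGT76E12 lay below the set median in all 3 leaf arrays. For 8 of the 47 members the 3 leaf values were identical to the last digit, as they were for 14.7% of all probe sets. Among the 85A genes this was so for UGT85A3 and UGT85A4.

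**Figure D4:**
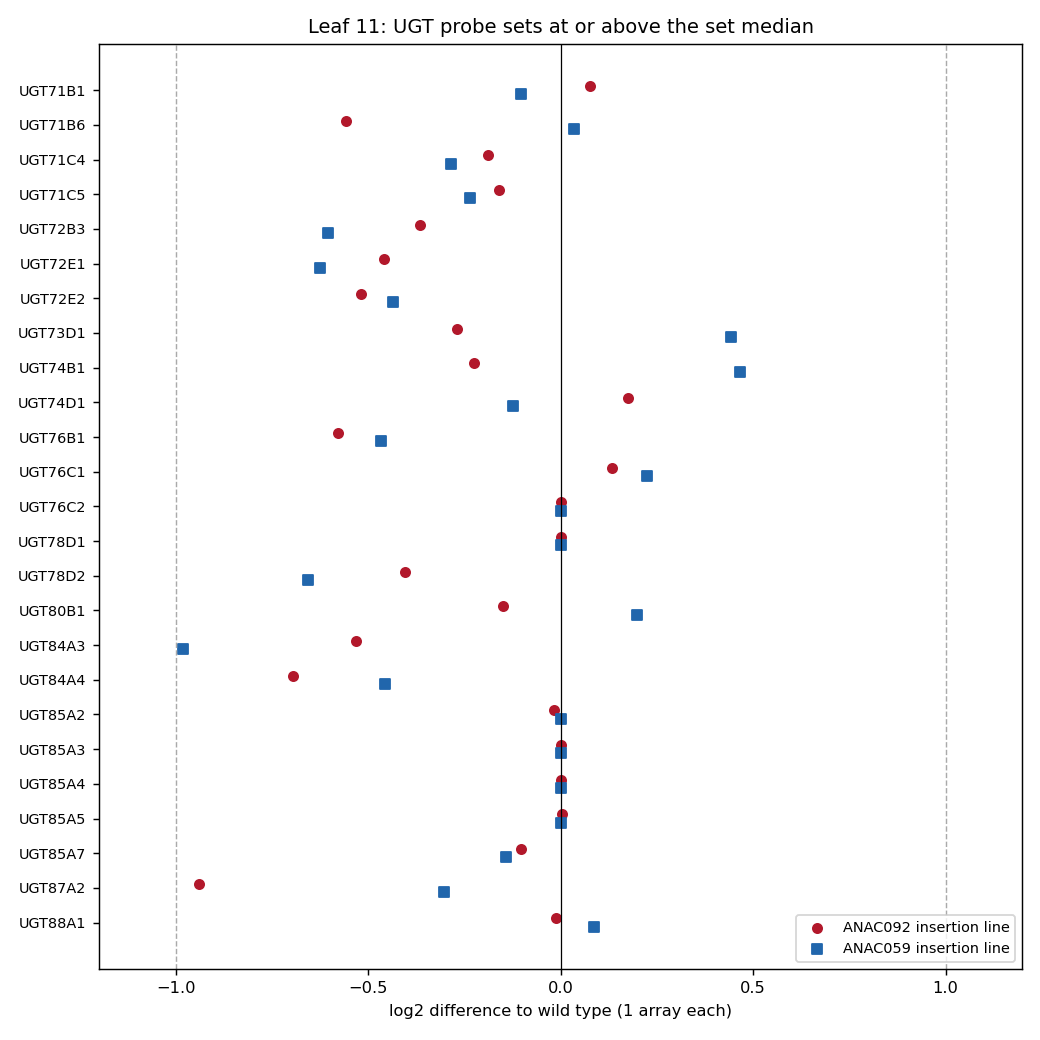
Log2 difference to wild type in leaf 11 for the 25 UDP-glycosyltransferase probe sets that reached the set median, with circles for the ANAC092 insertion line and squares for the ANAC059 insertion line (1 array each). No point crosses the dashed lines at 2-fold. UGT84A3 in the ANAC059 line and UGT87A2 in the ANAC092 line come closest, at -0.98 and -0.94.

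Neighbouring members did not always move together. By gene order in TAIR10.1, 30 of the 47 members fell into 13 groups of neighbours with at most 1 gene between. After ANAC092 induction the pair UGT73B4 and UGT73B5 fell together. UGT76E12 fell beside UGT76E11, which missed the threshold. UGT84A3 was at -0.66 between UGT84A1 at -0.16 and UGT84A4 at -0.09, and UGT71C5 at -0.35 lay in a row with UGT71C4 at 0.09 and UGT71C3 at 0.21.

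Genes that act beside the glycosyltransferases were called in 1 of 4 lists. Beta-glucosidases, which can release the conjugated compounds, had 20 measured genes of which 2 rose after ANAC092 induction: BGLU41 by 1.85 ± 0.21 SE (limma adjusted p = 0.00532) and BGLU16 by 0.62 ± 0.10 SE (limma adjusted p = 0.0216). Of all probe sets 1.4% were called higher there. The list median was 0.02, and 0 of the 20 were called by limma after ANAC059 induction. At an unadjusted p under 0.05, 5 of the 20 passed after ANAC092 induction and 3 after ANAC059 induction, against 12% and 20.4% of all probe sets. Glutathione transferases, another conjugating family of detoxification, had 14 measured genes with 0 calls in limma in either induction, at -0.38 to 0.35 after ANAC092 induction. At an unadjusted p under 0.05, 0 of them passed after ANAC092 and 3 after ANAC059 induction, against the same 12% and 20.4%. Of the flavonoid path 1 listed gene, DFR, had a probe set named for it, at 0.03 and -0.06 after ANAC092 and ANAC059 induction. Of the salicylate list 1 gene, BSMT1, had one, at 0.04 and -0.10. The other genes of these 2 lists matched no probe set by name, so the lists as a whole were not examined.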

How the data were processed

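Expression was measured in 13 profiles from ATH1 arrays. The deposited table holds log2 signals, which the authors computed with RMA in 3 separately normalized sets, per the labels and the submitters' processing notes. The RMA version and the array's genome build are not given in the sources used here. The table held 22810 probe sets, of which 64 controls were left out. Gene names came from the platform annotation, where 13513 probe sets had 1 gene, 503 several and 8730 none. No name was taken from a probe set of several genes. Loci and gene order came from RefSeq's TAIR10.1 gene table, and no coordinates are given.

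Induced and empty vector arrays of a set were compared in limma 3.58.1 (R 4.3.3; lmFit and eBayes, two-sided), fitted on all probe sets with Benjamini-Hochberg adjustment and a threshold of 0.05. SE is limma's moderated standard error. Leaf arrays were compared without a test. The number of arrays limits the precision. On simulated data with 3 arrays per group, 93% of 100 probe sets changed by 2 on the log2 scale and 62% of 100 changed by 1 were called. With 2 per group the shares were 90% and 62%. The simulated noise was independent between arrays, unlike the arrays that stood apart here. No change below 1 was simulated, and most of the called changes were smaller than 1, so the shares do not apply to them. Every member could be named, with array values for genes called in either induction, genes at least 2-fold from wild type in a bright leaf comparison (none) and substrate lists. UGT76E11 and UGT87A2 are given by array because of their values. The members and lists were chosen with earlier results of these data known. Alternatives covered normalization, a filter on dim probe sets, the variance model, array weights, the replicate block, single arrays left out and the fold threshold.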

Additional observations from a re-analysis of the deposited data

Results flagged for a closer look

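A pair of genes had all induced arrays on one side of the controls in one induction and all on the other side in the other induction. Both lay below after ANAC092 induction, as did 12.4% of all probe sets, and above after ANAC059 induction, as did 26.2%. The share of all probe sets that changed sides in this way was not counted. UGT84A3 changed by -0.66 after ANAC092 induction, where it did not pass, and by 0.62 after ANAC059 induction, where it did. UGT71C5, an abscisic acid glucosyltransferase gene, changed by -0.35 after ANAC092 induction and by 0.071 ± 0.085 SE after ANAC059 induction and passed in neither. The difference between the inductions was not tested, since the sets were normalized separately and share control hybridisations. No group held the 4 arrays needed to look for a single outlying array.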

How the results depend on the processing

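The 6 lower and 1 higher calls after ANAC092 induction changed with the arrays used. Leaving out 1 array gave 0 to 4 lower and 0 to 1 higher calls. Of all probe sets, 0.919% to 3.46% were called in these fits, against 2.23% with all 6 arrays. The lower count was 0 without empty vector replicate 1, 1 without empty vector replicate 2 or induced replicate 3, 2 without induced replicate 2, 3 without induced replicate 1 and 4 without empty vector replicate 3. The lower count was 2 with induced replicates 1 and 3 averaged, 0 against empty vector replicate 3 alone and 1 with a 2-fold minimum, and the higher count was 0 in each of these. With those replicates averaged, 1.06% of all probe sets were called. The higher count was also 0 with dim probe sets removed, and the lower count was 4, with 4.63% of the remaining probe sets called. That filter took UGT76D1, UGT73B4 and UGT76E12 out of the test. Default limma array weights did not converge, and its gene-by-gene weights gave 12 lower and 3 higher calls, among 3677 called of 22746 probe sets. Quantile normalization and a trended variance left both counts within 1.5 times. Replicate numbers did not pair the arrays: deviations from the group means correlated at -0.107, 0.271 and 0.0968 for numbers 1 to 3 in the ANAC092 set and at 0.0281 in the ANAC059 set, and not every array correlated best with its own number. With the replicate block the ANAC092 counts were 6 lower and 1 higher, and 2.43% of all probe sets were called. Of these 7 genes, 5 were among the 7 called without it. UGT73B1 (limma adjusted p = 0.0536) and UGT88A1 (0.0612) no longer passed, while UGT76E11 (0.0158) and UGT74D1 (0.0312) did. The single ANAC059 call was lost (0 higher of 0 called in all).

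After ANAC059 induction the rise of UGT84A3 was lost with a 2-fold minimum (0 higher calls), and leaving out 1 array gave 0 to 1. With dim probe sets removed, 1 member, UGT88A1, was called lower (limma adjusted p = 0.0477). In that fit 8.12% of the remaining probe sets were called, against 2.99% of all probe sets without the filter. In this induction the change of UGT73B5 turned to -0.063 with quantile normalization and lay between -0.10 and 0.11 without single arrays, and that of UGT76D1 lay between -0.045 and 0.23. In leaf 11 a 1.5-fold threshold gave 2 lower members in the ANAC092 line (6.77% of all) and 4 in the ANAC059 line (5.37% of all). Quantile normalization gave 1 in the ANAC059 line, UGT84A3 at -1.04. The cause of these changes was not tested.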

Other observations

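The gene table lists UGT names as synonyms of 4 further genes that the naming rule left out, and 3 probe sets hold a UGT gene beside another gene. None of the 7 passed in either induction in limma. UF3GT, also listed as UGT79B1 and known as an anthocyanin xylosyltransferase, had 6.68 in the ANAC092 insertion line and 6.16 in the ANAC059 insertion line, against 7.29 in wild type leaf 11, differences of -0.61 and -1.13. GT72B1, also listed as UGT72B1, had 10.17 and 9.77 in these lines, against 10.41 in wild type. The probe set shared by UGT73B2 and UGT73B3 was at 0.08 after ANAC092 induction and 0.16 after ANAC059 induction, next to the 3 measured 73B genes that fell after ANAC092 induction.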
